A study of Mus musculus with 4 samples.

Results

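Interneurons sorted from the hippocampus and the frontal cortex of mice whose medial ganglionic eminence lineage carries deleted Grin1 alleles were compared, to see which regional differences in gene expression are present in cells without this NMDA receptor subunit. A member was a cell of the 4 Grin1-null libraries with 200 to 6000 detected genes, under 30% of its UMIs (unique molecular identifiers, each a captured transcript) from mitochondrial genes, at least 3 UMIs of Gad1 plus Gad2, and 0 UMIs of the myelin gene Mog. There were 2761 such cells among 7919 Grin1-null barcodes, and 9363 among the 26987 barcodes of all 10 libraries. Sst cells were the 1143 members with Sst at 3000 CPM or more (UMIs per 1000000 UMIs of the cell), and the other 1618 are called other interneurons. Just inside the Gad limit lay 55 cells with exactly 3 UMIs and just outside it 87 cells with 2, while 393 cells met the Gad limit but held Mog. Near the Sst limit, 99 cells had 1500 to 3000 CPM and 185 had 3000 to 6000, and 847 members held no Sst UMI.

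The mice were 18 to 20 days old, and both sexes were used. Grin1-null animals carried Nkx2-1-Cre, Grin1 fl/fl and the Ai14 reporter, WT littermates carried the same Cre and reporter with Grin1 wt/wt, and TdTomato-positive cells of both genotypes were sorted and run as droplet libraries of 3′ transcript ends. All groups were dissociated with tetrodotoxin, the NMDA receptor blocker APV and actinomycin-D in the buffers. Each library pooled several animals, the Cre line also marks oligodendrocytes of the Nkx2-1 lineage, and which exons are deleted relative to the 3′ tag is not given in the sources used here. There were 2 Grin1-null libraries per region and 3 WT libraries per region. Replicate 1 of both genotypes was made with the older v2 chemistry and the other replicates with v3. The cortical and hippocampal library of the same genotype and replicate number were taken as a pair. Chemistry alone does not tell the pairs of WT replicates 2 and 3 apart.

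NMDA receptors are glutamate-gated cation channels that need the subunit encoded by Grin1 in every functional assembly, and in young interneurons they carry much of the glutamatergic input. Interneurons of the medial ganglionic eminence, among them the somatostatin (Sst), parvalbumin and part of the neurogliaform cells, migrate to cortex and hippocampus and take on regional features there. Whether those features differ without NMDA receptors is the question the comparison addresses.

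The libraries were unequal in size. Cortex replicate 1 held 119 members and 72 Sst cells, cortex replicate 2 held 944 and 445, hippocampus replicate 1 held 164 and 62, and hippocampus replicate 2 held 1534 and 564. Summed over Sst cells, depth was 738498 and 6893250 UMIs in cortex replicates 1 and 2 and 816547 and 8552914 in hippocampus replicates 1 and 2. Replicate 1 was therefore the smaller in both regions, and a count of 0 there allows up to 3 UMIs in its sum. Levels below are CPM of the summed cells of a library. Median UMIs per Sst cell were 8898.5 and 15725 in cortex and 12607 and 14858 in hippocampus. Barcodes over the mitochondrial limit made up 9.90% and 5.97% in cortex and hippocampus replicate 2 and 1.66% and 0.743% in replicate 1 of the Grin1-null libraries, and at most 0.127% in the WT libraries of either chemistry. Cortex and hippocampus replicate 2 shared 7 barcodes, and no other pair of Grin1-null libraries shared any.

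Some of the paired libraries differed in the sex makeup of their animals. Xist, expressed from the inactive X chromosome, measured 88.0 CPM in cortex replicate 1 of the Grin1-null Sst cells and 0 in the other 3 Grin1-null libraries. In WT it measured 398, 0 and 23.1 CPM in cortex and 538, 0 and 280.4 in hippocampus replicates 1 to 3. The Y-linked Ddx3y was present throughout, at 55.5 and 68.9 CPM in Grin1-null cortex and 83.3 and 83.7 in hippocampus. Both replicate 2 libraries of each genotype thus lacked Xist, whereas Grin1-null replicate 1 and WT replicate 3 paired libraries of unequal sex makeup; its part in the regional differences was not tested.

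Grin1 itself (GRCm38 chromosome 2, 25291181 to 25319187) was low in every Grin1-null library. In Sst cells it measured 36.6 and 30.5 CPM in cortex and 20.8 and 24.1 in hippocampus, against 154, 250.3 and 228 in WT cortex and 126, 181 and 150.3 in WT hippocampus. Every Grin1-null value lay below every WT value, as the labels say. Residual reads were above the 0.609 to 8.31 CPM found in oligodendrocytes (Mog at least 2 UMIs, no Gad) of the same libraries. The regional difference of Grin1 in Grin1-null Sst cells was -0.60 on the log2 scale (SE 0.25, adjusted p 0.480). Of 7 NMDA receptor subunit genes, 5 were tested in Sst cells and 0 differed between regions, with a median of -0.50. With 0.978% of all genes tested differing, a count of 0 tells nothing about this list. Grin2b, the main partner subunit of immature receptors, measured 352 and 247 CPM in cortex and 407 and 326 in hippocampus.

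Identity markers were read first. Sst measured 18224 and 23770 CPM in Grin1-null cortical and 14607 and 18722 in hippocampal Sst cells, but the gate used it, so it is no finding. Lhx6, the transcription factor that marks postmitotic cells of this lineage, measured 96.1 and 124 CPM in cortex and 95.5 and 99.3 in hippocampus. The regions overlapped in Lhx6, and its log2 difference was -0.30 (adjusted p 0.967). Satb1, a chromatin factor needed for Sst cell maturation, overlapped too, at 492 and 350.5 CPM in cortex and 408 and 423 in hippocampus. Of 8 genes for making, packaging or moving GABA, 8 were tested and 0 differed, but the gate used Gad1 and Gad2 among them, and 0.978% of all genes differed.

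Sst cells made up 60.5% (95% Wilson interval 51.5 to 68.8) and 47.1% (44.0 to 50.3) of the Grin1-null members in cortex replicates 1 and 2, and 37.8% (30.7 to 45.4) and 36.8% (34.4 to 39.2) in hippocampus. Both cortical shares lay above both hippocampal ones, and the mean hippocampal minus the mean cortical share was -16.5 percentage points, or -9.85 without cortex replicate 1 and -23.2 without cortex replicate 2. With Sst cells that held a Chodl UMI left out, the shares were 58.8% and 36.3% in cortex and 37.8% and 35.7% in hippocampus, which overlap, and the difference was -10.8 percentage points. WT cortex held 60.5%, 54.4% and 58.6%, and WT hippocampus 39.5%, 34.0% and 31.4%, with no overlap either. Since 2 libraries against 2 allow no exact two-sided permutation p below 0.333, the share was not tested.

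**Figure D1:**
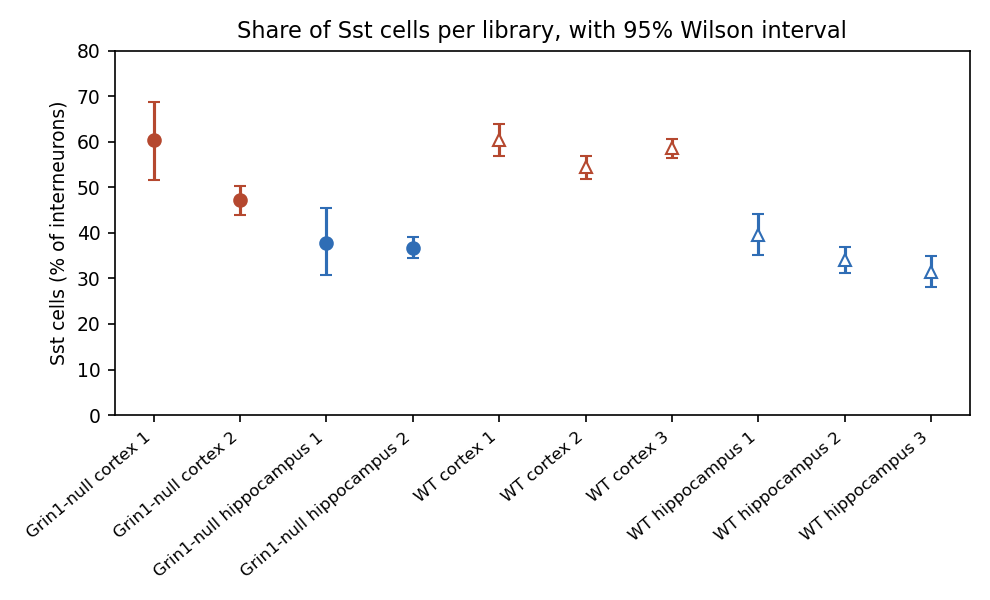
Percent of members that were Sst cells in each of the 10 libraries (filled circles Grin1-null, open triangles WT, red cortex, blue hippocampus), with 95% Wilson intervals that cover counting error only. In both genotypes all cortical shares, 47.1% or more, lie above all hippocampal shares, 39.5% or less.

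In Sst cells, 119 of 12170 genes tested (0.978%) differed between hippocampus and cortex of Grin1-null mice, 45 higher (0.37%) and 74 lower (0.608%) in hippocampus. A gene was counted when edgeR's quasi-likelihood test, with the pair as a block and Benjamini-Hochberg adjustment over all genes tested, gave an adjusted p under 0.01 and the log2 difference was at least 0.144 in size. DESeq2 counted 91 and at an adjusted p under 0.05 edgeR counted 200. In replicate pair 1, 115 of the 119 had the sign of the fit, and in pair 2 all 119 had it. The 2 hippocampal and 2 cortical libraries did not overlap for 114 of them, against 3916 of all genes tested (32.2%). The count rested on the larger pair. It was 8 without cortex replicate 2 and 5 without hippocampus replicate 2, whereas it was 113 without cortex replicate 1 and 112 without hippocampus replicate 1. Leaving out WT libraries, which enter through the spread, the scaling and the choice of genes tested, gave 205 without WT cortex replicate 2 and 211 without WT hippocampus replicate 2. With no replicate block 5 genes passed, 5 of them among the 119.

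Transcription factors with regional expression formed the first list of genes. Of 28 such factors 23 were tested, of which 4 were higher and 3 lower in hippocampus, where 0.978% of all genes tested differed. The list's median log2 difference was 0.11, beside 0.0031 over all genes tested. Nr2f1, an orphan nuclear receptor (COUP-TFI; chromosome 13, 78188973 to 78199757), measured 39.3 and 31.0 CPM in cortex and 107 and 116 in hippocampus. Lmo1, a LIM-only cofactor (chromosome 7, 109138572 to 109175207), measured 9.48 and 17.4 CPM in cortex and 53.9 and 73.9 in hippocampus. Both hippocampal libraries exceeded both cortical ones for either gene, with log2 differences of 1.62 (SE 0.26, adjusted p 0.00222) and 2.06 (SE 0.28, adjusted p 0.00051). Id2, an inhibitor of basic helix-loop-helix factors, rose from 4.06 and 8.85 CPM in cortex to 56.3 and 43.3 in hippocampus. Nfib, a nuclear factor I protein (chromosome 4, 82290173 to 82705750), had 4.06 and 1.31 CPM in cortex and 12.2 and 20.9 in hippocampus. The regions did not overlap for these genes either, with log2 differences of 2.46 for Id2 (adjusted p 0.000455) and 3.34 for Nfib (adjusted p 0.00476). Its paralog Nfix moved the same way, from 1.35 and 0.435 CPM to 8.57 and 9.12, but missed the threshold (log2 difference 3.86, adjusted p 0.0162), and Nfia was too low to be tested.

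Cortical Sst cells without Grin1 had more of 4 other factors. Zbtb20, a zinc finger repressor (chromosome 16, 42875881 to 43642602), measured 69.1 and 119 CPM in cortex and 17.1 and 31.8 in hippocampus. Bcl11a measured 203 and 214 CPM in cortex and 85.7 and 115 in hippocampus, and its paralog Bcl11b 56.9 and 82.4 against 24.5 and 25.3. All cortical values of these zinc finger genes exceeded all hippocampal values, with log2 differences of -2.05 (adjusted p 0.000329), -1.15 (adjusted p 0.00744) and -1.67 (adjusted p 0.00218). Sox6, an SRY-related factor downstream of Lhx6, measured 65.0 and 76.7 CPM in cortex and 30.6 and 29.8 in hippocampus (log2 difference -1.38, adjusted p 0.00984). It was the 1 gene of the 15 lineage factors tested that differed, beside 0.978% of all genes tested, and 1 call tells little about that list. Sox6 lost the threshold under scaling by library size, with mitochondrial genes left out, without the 5% of cells richest in UMIs and at Sst limits of 1000 and 10000 CPM, Bcl11a under scaling by library size, at Gad1 plus Gad2 of at least 6 UMIs and at both Sst limits, and Nfib by DESeq2 and at both Sst limits. All 8 of these factors fell short without cortex replicate 2 (adjusted p 0.0216 to 0.846) or without hippocampus replicate 2 (0.0290 to 0.880), with unchanged signs; without either of these, Nfib stood at 1.53 and Id2 at 3.73. Bcl11a and Sox6 also fell short without cortex replicate 1 (largest adjusted p 0.199), without hippocampus replicate 1 (0.194), and without replicate 1 or 3 of WT cortex (0.0172 and 0.0174) or WT hippocampus (0.0139 and 0.0105).

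**Figure D2:**
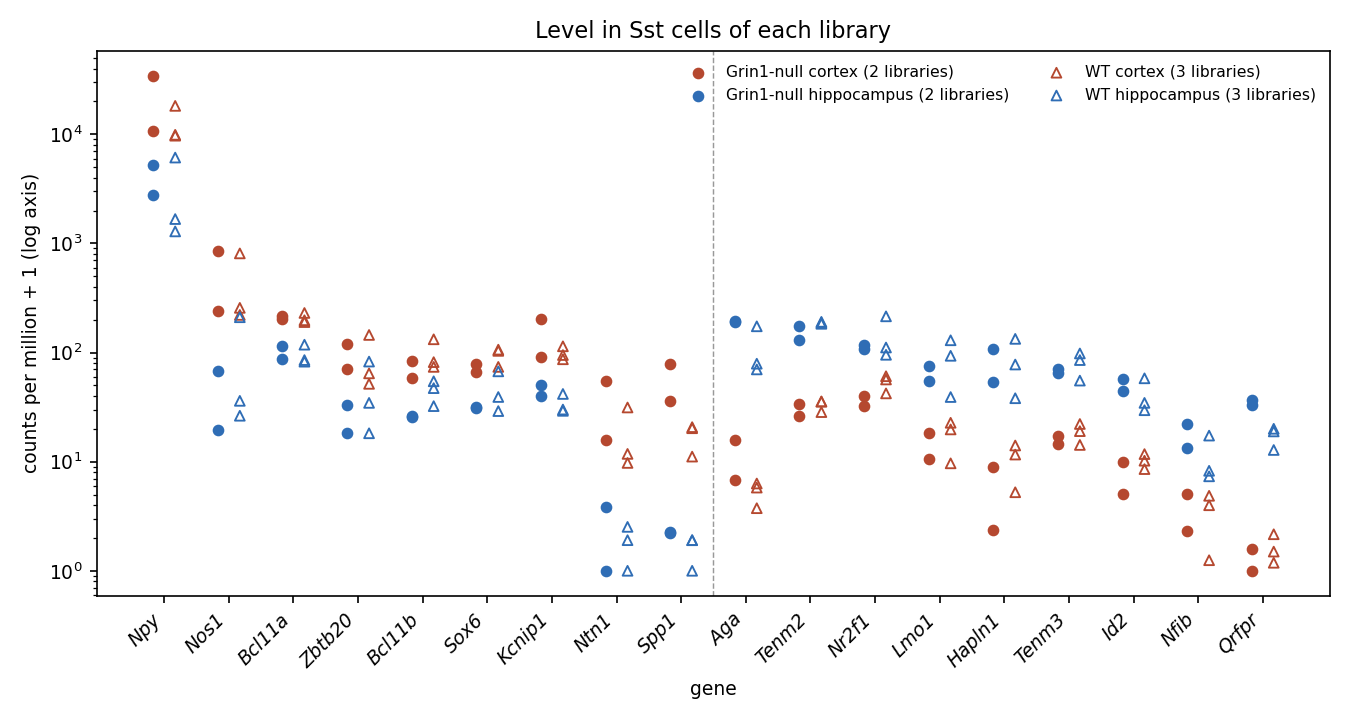
Level of 18 genes in the Sst cells of each library, in CPM plus 1 on a log axis (filled circles Grin1-null, open triangles WT, red cortex, blue hippocampus). To the left of the dashed line both Grin1-null cortical libraries lie above both hippocampal ones, as for Zbtb20 at 69.1 and 119 against 17.1 and 31.8 CPM, and to the right below them.

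Of 16 neuropeptide genes tested, among them Sst, which the gate used, 3 differed, beside 0.978% of all genes tested. Npy (chromosome 6, 49822710 to 49829507), encoding neuropeptide Y, measured 10748 and 34585 CPM in Grin1-null cortical Sst cells and 2792 and 5251 in hippocampal ones. Nts, encoding neurotensin, measured 4.06 and 16.5 CPM in cortex and 2.45 and 0.702 in hippocampus. Pnoc, encoding the precursor of nociceptin, went the other way, from 42.0 and 123 CPM in cortex to 348 and 433 in hippocampus. None of these overlapped between regions, and the log2 differences were -2.43 (adjusted p 0.000167), -4.10 (adjusted p 0.000799) and 2.19 (adjusted p 0.00338). In replicate 1 the Nts levels amounted to only a few UMIs in each region, so its lack of overlap there rests on few counts. Without either Grin1-null replicate 2 library Nts stood at -0.77 (adjusted p 0.978 and 0.979), and without cortex replicate 2 Pnoc stood at 2.999 (adjusted p 0.0260). Nts did not pass by DESeq2. Pdyn, encoding prodynorphin, measured 271 and 61.4 CPM in cortex and 1.22 and 18.9 in hippocampus without passing (log2 difference -2.99, adjusted p 0.0193).

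Long-range projecting Sst cells express Chodl, Nos1, Npy and the substance P receptor gene Tacr1. Of 16 genes that mark Sst subtypes, 16 were tested and 4 were lower in hippocampus, with a list median of -0.65. Over all genes tested 0.608% were lower, and the median was 0.0031. Chodl (chromosome 16, 78930948 to 78951733) measured 36.6 and 169.7 CPM in cortex and 0 and 17.1 in hippocampus. Nos1, encoding neuronal nitric oxide synthase, measured 238 and 847 CPM in cortex and 18.4 and 67.3 in hippocampus. Tacr1 measured 13.5 and 58.8 CPM in cortex and 1.22 and 7.02 in hippocampus. All 3 were cortical without overlap, with log2 differences of -3.63 (adjusted p 0.000323), -3.78 (adjusted p 5.89e-06) and -3.22 (adjusted p 5.4e-05); Chodl did not pass by DESeq2. A Chodl UMI was found in 6.94% and 36.2% of cortical Sst cells, in 0 of 62 cells of hippocampus replicate 1, which allows up to 4.84%, and in 4.43% of hippocampus replicate 2. Thinned to 2000 UMIs per cell the shares were 3.08%, 20.6%, 0 and 1.79%. In oligodendrocytes of the same libraries, with median depths of 6391.5 and 7991.5 UMIs in cortex and 8309.5 and 8226 in hippocampus, a Chodl UMI was found in 0 and 0.210% of cortical and 0 and 0.227% of hippocampal cells. Cortex replicate 2 was thus richest in Chodl cells, and the share differed between the cortical libraries as well as between regions.

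Without the Sst cells that held a Chodl UMI, 52 genes differed, 36 of them among the 119. Npy then had a log2 difference of -1.11 (adjusted p 0.0133), Nos1 of -1.87 (adjusted p 0.0242) and Tacr1 of -2.63 (adjusted p 0.12). These 3 kept their sign but no longer passed. Calb2, encoding calretinin, measured 215 and 251 CPM in cortex and 29.4 and 111 in hippocampus and passed with Chodl cells (log2 difference -1.91, adjusted p 0.00315) and without them (-1.71, adjusted p 0.00323). Nts also passed without them (-4.70, adjusted p 0.000619), whereas Pnoc did not (1.77, adjusted p 0.0437). Among the transcription factors, Lmo1, Id2 and Zbtb20 passed without Chodl cells, at 1.68, 1.93 and -1.50, and Nfib, Nr2f1, Bcl11a, Bcl11b and Sox6 did not, at 2.75, 1.12, -0.91, -1.38 and -1.12. Of these 7 peptide and subtype genes, Nos1 and Calb2 passed without cortex replicate 2 and Nos1 passed without hippocampus replicate 2, the others reaching an adjusted p of up to 0.978 and 0.979. Calb2 lost its call without the 5% of cells richest in UMIs and at an Sst limit of 10000 CPM, and stood at -2.92 without either replicate 2 library and at -1.31 without either replicate 1 library. Pnoc and Calb2 fell short without cortex replicate 1 (up to 0.0859) or hippocampus replicate 1 (up to 0.0816).

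Some axon guidance and adhesion genes differed, and those that did went in both directions. Of 52 guidance genes 46 were tested, 3 were higher and 2 lower in hippocampus, and the median was 0.070. Over all genes tested 0.978% differed, and the median was 0.0031. Teneurin genes encode transmembrane proteins that bind latrophilins across the synapse. Tenm2 (chromosome 11, 36006656 to 37235964) measured 32.5 and 25.2 CPM in cortex and 173 and 128 in hippocampus, and Tenm3 measured 13.5 and 16.1 against 63.7 and 69.7. Nrp1, a semaphorin and VEGF receptor, measured 1.35 and 1.60 CPM in cortex and 15.9 and 11.0 in hippocampus. These 3 were hippocampal in both pairs, with log2 differences of 2.26 (adjusted p 4.89e-05), 2.03 (adjusted p 0.000393) and 2.76 (adjusted p 0.00662). The 2 lower ones encode secreted cues. Ntn1, encoding netrin-1, measured 14.9 and 53.4 CPM in cortex and 0 and 2.81 in hippocampus, and Sema3e measured 29.8 and 38.2 against 1.22 and 13.4. Neither overlapped, at log2 differences of -4.46 (adjusted p 3.48e-05) and -1.98 (adjusted p 0.00476).

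Of 23 cadherin and protocadherin genes tested, 1 differed, beside 0.978% of all genes tested. Pcdh18 measured 48.7 and 79.2 CPM in cortex and 22.04 and 33.2 in hippocampus (log2 difference -1.34, adjusted p 0.00678), and without Chodl cells the difference was -0.59 (adjusted p 0.669). Hapln1, which links hyaluronan to proteoglycans in the extracellular matrix (chromosome 13, 89539796 to 89611652), measured 1.35 and 7.98 CPM in cortex and 52.7 and 107 in hippocampus. The gap was wide in both pairs and gave a log2 difference of 3.76 (SE 0.32, adjusted p 9.81e-06), or 3.37 without Chodl cells. Tenm2, Tenm3 and Sema3e also passed without Chodl cells, at 2.28, 1.64 and -2.22, while Nrp1 did not (2.96, adjusted p 0.0169). None of Ntn1, Sema3e, Tenm2, Tenm3, Nrp1, Pcdh18 and Hapln1 passed without cortex replicate 2 (adjusted p 0.0118 to 0.532) or hippocampus replicate 2 (0.0139 to 0.553), all 7 with the same sign. There Sema3e stood at -4.62, Hapln1 at 5.20 and Nrp1 at 3.48 without cortex replicate 2, each with 1 UMI in 1 of the remaining libraries. Sema3e, Nrp1 and Pcdh18 fell short without cortex replicate 1 (up to 0.0379), hippocampus replicate 1 (up to 0.0366) or WT cortex replicate 3 (up to 0.0174), Nrp1 and Pcdh18 without WT cortex replicate 1 (up to 0.0129) or WT hippocampus replicate 1 (up to 0.0111), and Nrp1 without WT hippocampus replicate 3 (0.0146). Pcdh18 also fell short under scaling by library size, Nrp1 and Pcdh18 by DESeq2, and Sema3e, Nrp1 and Pcdh18 at an Sst limit of 10000 CPM.

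Among receptor and channel genes, Kcnip1, encoding an accessory protein of Kv4 potassium channels, measured 202 and 90.5 CPM in Grin1-null cortex and 49.0 and 39.1 in hippocampus. The regions did not overlap, and the log2 difference was -1.66 (SE 0.24, adjusted p 0.000693). Kcnip1 was the 1 of 31 potassium and HCN channel genes tested that passed. By edgeR 0 of 18 AMPA and kainate receptor genes and 0 of 6 metabotropic glutamate receptor genes passed, with medians of 0.070 and 0.0038; with 0.978% of all genes passing, counts this low tell nothing about these lists. Grin3a, an NMDA receptor subunit gene, measured 505 and 349 CPM in cortex and 156 and 272 in hippocampus without overlap, at a log2 difference of -1.08 that did not pass (adjusted p 0.0529). Kcnip1 fell short when any of the 4 Grin1-null libraries was left out, with an adjusted p of 0.0403 without cortex replicate 1, 0.0235 without cortex replicate 2, 0.0412 without hippocampus replicate 1 and 0.0312 without hippocampus replicate 2.

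The 12 widest rises in hippocampus, among genes of equal sign in both pairs and no overlap, included several that were all but absent from cortex. Gm11549, a non-coding RNA, had 0 UMIs in both cortical libraries and 17 and 101 in the hippocampal ones, or 20.8 and 11.8 CPM. Tnfaip8l3, which transfers phosphoinositide lipids, had 0 UMIs in cortex and 15.9 and 9.003 CPM in hippocampus. Taking 3 counts over the cortical group as the floor, they were at least 32.0-fold and at least 24.4-fold higher in hippocampus. This floor rests mainly on cortex replicate 2, with 6893250 UMIs in Sst cells against 738498 in cortex replicate 1. Without cortex replicate 2 both bounds would be lower. Qrfpr, a neuropeptide receptor gene (chromosome 3, 36179424 to 36222313), measured 0 and 0.580 CPM in cortex and 31.8 and 35.5 in hippocampus. Ctsc, encoding the lysosomal protease cathepsin C (chromosome 7, 88278085 to 88310888), measured 0 and 0.580 CPM against 31.8 and 30.4. Aga, encoding lysosomal aspartylglucosaminidase (chromosome 8, 53511727 to 53523421), measured 14.9 and 5.80 CPM in cortex and 189 and 194 in hippocampus. Their log2 differences were 5.89 (SE 0.56, adjusted p 2.24e-05), 5.69 (SE 0.53, adjusted p 2.12e-05) and 4.50 (SE 0.43, adjusted p 2.24e-05), with hippocampal levels close to each other in the 2 replicates. With Spp1, these 3 were the named genes that passed with no replicate block.

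Of the remaining rises, 6 had 1 to 3 UMIs in Grin1-null cortex. The ratio of summed levels was 63.5 for Rhox8 (95% counting interval 11.1 to 2541), 35.8 for Gfra1 (9.63 to 301), which encodes a GDNF receptor, 34.6 for the neurotrophin gene Ntf3 (9.29 to 290.5), 31.0 for Gp5 (10.3 to 152), 23.1 for Gna14 (7.63 to 114) and 20.6 for Neb (6.80 to 102). Postn, encoding the matrix protein periostin, measured 0 and 0.870 CPM in cortex and 3.67 and 16.4 in hippocampus (log2 difference 4.10, adjusted p 0.00134). All of these measured higher in both hippocampal libraries than in both cortical ones. For Postn the 0 in cortex replicate 1 allows up to 3 UMIs, which would lie above its 3.67 CPM in hippocampus replicate 1. Gp5, Gna14, Neb and Rhox8 did not pass by DESeq2, and Rhox8, Gfra1, Ntf3, Gp5, Gna14 and Neb did not pass without Chodl cells. None of the 12 rises passed without cortex replicate 2 (adjusted p 0.0204 to 0.760) or hippocampus replicate 2 (0.0271 to 0.834), and all 12 kept their sign, Aga at 3.61 without either and Gna14 at 2.78 without cortex replicate 2. Neb fell short without cortex replicate 1 (0.0136) or WT cortex replicate 1 (0.0105), Rhox8, Ntf3 and Neb without hippocampus replicate 1 (up to 0.0169), and Gna14 and Neb without WT cortex replicate 3 (up to 0.0115).

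Among the widest falls, Spp1, encoding the secreted phosphoprotein osteopontin (chromosome 5, 104435118 to 104441050), measured 35.2 and 76.7 CPM in cortex and 1.22 and 1.29 in hippocampus. Its log2 difference was -5.90 (SE 0.46, adjusted p 5.28e-06), and -6.50 without Chodl cells. Slc5a7, encoding the choline transporter, measured 5.42 and 38.9 CPM in cortex and 0 and 1.29 in hippocampus, while the acetylcholine genes Chat and Slc18a3 had 0 UMIs in Sst cells of all 4 libraries. Dhrs3, encoding a retinaldehyde reductase, measured 13.5 and 37.6 CPM against 1.22 and 1.99. Cortical levels of Slc5a7 and Dhrs3 were higher without overlap, with log2 differences of -5.05 and -4.29 and adjusted p of 5.65e-05 and 0.000136.

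Other falls were Sv2b, with 83 UMIs in cortex and 2 in hippocampus (a ratio of 50.9, counting interval 13.7 to 428), Bace2, Krt18, Insl6, Rasgef1b and Pou3f2, at log2 differences of -4.93, -4.62, -4.53, -4.20 and -4.14, and Ntn1, given above. Without cells that held a Chodl UMI, Slc5a7, Dhrs3 and Pou3f2 stood at -3.27, -2.72 and -2.08 with adjusted p of 0.24, 0.0977 and 0.296, and Sv2b, Bace2, Krt18, Insl6, Ntn1 and Rasgef1b were too low to be tested. Sv2b and Pou3f2 did not pass by DESeq2. Insl6 stood at -3.33 without cortex replicate 2 and also without hippocampus replicate 2. None of the 9 falls given here other than Ntn1 passed without cortex replicate 2 (adjusted p 0.0459 to 0.921) or hippocampus replicate 2 (0.0460 to 0.904), all with the same sign; without either of these, Spp1 stood at -4.86 and Dhrs3 at -3.48.

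Of 9 stress genes tested, 2 heat shock genes differed. Hspa1a measured 5.42 and 5.95 CPM in Grin1-null cortex and 3.67 and 74.9 in hippocampus, and Hspa1b 1.35 and 3.63 against 0 and 30.3; they share near-identical sequence, so the split between them is uncertain. A single library, hippocampus replicate 2, was high, and in WT the replicate 2 libraries were high in both regions, at 51.0 and 65.3 CPM of Hspa1a. Their log2 differences were 3.12 (adjusted p 0.00297) and 2.77 (adjusted p 0.00585). Without cortex or hippocampus replicate 2, Hspa1a turned to -0.61 (adjusted p 0.978 and 0.979), and Hspa1b rested on 1 UMI in cortex and 0 in hippocampus, which allow no fold, and did not pass (0.888 and 0.893). Hspa1b also fell short without WT cortex replicate 1 (0.0105) or 3 (0.0114) and without Chodl cells (0.018), and both fell short by DESeq2. Of 19 activity-regulated genes, 0 passed by edgeR in Sst cells. With 0.978% of all genes passing, that count tells nothing about the list. Its median was 0.28, and Fos measured 24.4 and 47.7 CPM in cortex and 3.67 and 161 in hippocampus.

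Markers of other cell types were read in the same sums. All 8 oligodendrocyte genes on the list were tested and all 8 were higher in Grin1-null hippocampus, with a median of 0.93; summed, they came to 134 and 175 CPM in cortex and 266 and 375 in hippocampus. Mag passed, from 4.06 and 3.77 CPM to 15.9 and 18.4 (log2 difference 2.09, adjusted p 0.00838), against 4769.7 to 8259 CPM in oligodendrocytes of these libraries. It fell short without cortex replicate 1 or 2 (0.0144 and 0.661), hippocampus replicate 1 or 2 (0.0141 and 0.687), WT cortex replicate 1 or 3 (0.0135 and 0.0214) and WT hippocampus replicate 1 or 3 (0.0119 and 0.0162), by DESeq2 and without Chodl cells (0.0115). The 13 pyramidal cell genes, of which 4 were tested, summed to 249 and 223 CPM in cortex and 79.6 and 163 in hippocampus, led by Nrgn, with Slc17a6, Neurod1 and Emx1 at 0. Astrocyte genes summed to 52.8 and 34.2 CPM against 30.6 and 51.6, led by Slc1a2. Precursor, caudal eminence, dentate granule, choroid plexus, microglial and vascular lists each stayed at or below 14.8 CPM in the 4 libraries. The part of RNA from other cells in the regional differences was not tested.

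WT libraries gave a list of regional genes to read in the Grin1-null cells. In WT Sst cells 192 genes (1.58%) differed, 109 higher (0.896%) and 83 lower (0.682%) in hippocampus. All 192 had the same sign in the Grin1-null Sst cells, as did 7548 of all 12170 genes tested (62.0%). Within single Grin1-null pairs the count was 187 in replicate 1 and 191 in replicate 2. The 109 had a median log2 difference of 1.77 in WT and 1.53 in Grin1-null cells, and the 83 had -2.06 and -1.75, beside 0.0035 and 0.0031 over all genes; with 2 genes at 0 in Grin1-null cortex set to their bound the medians were the same. In turn, all 119 genes of the Grin1-null cells had the same sign in WT, where the 45 rises had a median of 2.33 beside 3.12 in Grin1-null cells, and the 74 falls -1.69 beside -3.04; each list is wider in the genotype it was chosen in. The 2 lists had 72 genes in common, 37.5% of the WT list and 60.5% of the Grin1-null list. Across genes, which are not independent replicates, Pearson's r between the 2 regional differences was 0.86 over the 109 rises, 0.61 over the 83 falls, 0.92 over the 192 together, whose opposite signs raise it, and 0.62 over all genes. The WT count fell to 82 without WT cortex replicate 1, 56 without WT cortex replicate 3, 85 without WT hippocampus replicate 1 and 78 without WT hippocampus replicate 3.

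**Figure D3:**
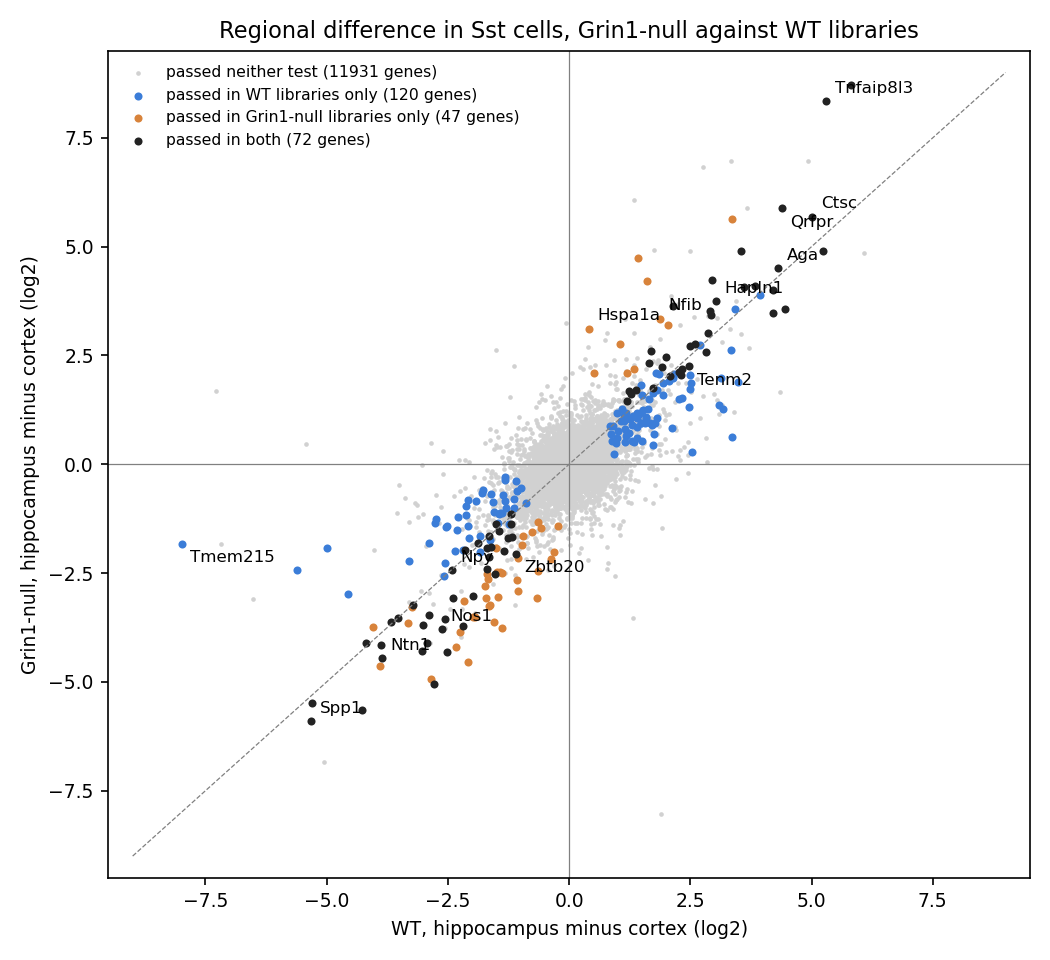
Regional difference in Sst cells (log2, hippocampus minus cortex) of the 12170 genes tested, WT on the x axis and Grin1-null on the y axis, coloured by which test a gene passed, with a dashed line of equality. The 72 genes that passed in both genotypes lie in the lower left and upper right of the panel.

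The difference between the genotypes in regional difference was itself tested. By edgeR's quasi-likelihood test 0 of 12170 genes had a Grin1-null regional difference that departed from the WT one (smallest adjusted p 0.585); 342 (2.81%) had an unadjusted p under 0.05, and DESeq2 gave 0. The median SE of that difference was 0.39, and wide departures did not pass either, such as S100a13 at -4.85 (adjusted p 0.585). The count of 0 therefore does not show that the regional differences were equal in the genotypes. Without WT cortex replicate 1 or without WT hippocampus replicate 1 the count was 1, in both cases Xist. Tenm2 differed by 2.26 in Grin1-null and 2.47 in WT cells, Hapln1 by 3.76 and 3.03 and Npy by -2.43 and -2.41. Nr2f1 stood at 1.62 and 1.27, Lmo1 at 2.06 and 2.32, Nfib at 3.34 and 1.88, Zbtb20 at -2.05 and -1.09 and Bcl11a at -1.15 and -1.20. Further apart were Hspa1a at 3.12 and 0.41, Gp5 at 4.73 and 1.42, Slc5a7 at -5.05 and -2.79 and Nos1 at -3.78 and -2.61, with unadjusted p for the difference between genotypes of 0.000558, 0.00474, 0.0104 and 0.0063. Genes of opposite sign in the genotypes included S100a13 at -3.54 and 1.31 and S100a6 at -2.56 and 0.94. Their unadjusted p by the same test were 0.000144 and 0.000272. Vip also had opposite signs, with 0 CPM in every WT hippocampal library.

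Of the 6 widest WT rises, Gm11549, Tnfaip8l3, Qrfpr, Ctsc and Ntf3 were also among the 12 Grin1-null rises. The sixth, Npffr1, a receptor for RFamide neuropeptides, measured 2.71 and 1.89 CPM in Grin1-null cortex and 35.5 and 24.8 in hippocampus, and 0.250, 0.920 and 1.66 against 27.2, 22.7 and 26.7 CPM in WT. Its log2 difference was 3.57 (adjusted p 0.000329) in Grin1-null and 4.45 in WT cells, and in the former it fell short without cortex replicate 2 (0.1004) or hippocampus replicate 2 (0.124). Of the widest WT falls, Spp1 passed in Grin1-null cells, while Tmem215, C1qtnf7, Thbs2 and Pdyn did not. Tmem215 measured 6.77 and 11.5 CPM in Grin1-null cortex and 0 and 4.09 in hippocampus, against 11.5, 8.47 and 4.89 CPM in WT cortex and 0 in all 3 WT hippocampal libraries. C1qtnf7 measured 2.71 and 3.19 CPM against 0 and 0.702, and Thbs2, encoding thrombospondin 2, 8.12 and 3.63 against 1.22 and 1.17. These and Pdyn measured higher in both Grin1-null cortical libraries than in both hippocampal ones, with log2 differences of -1.82, -2.42, -1.93 and -2.99 (adjusted p 0.116, 0.161, 0.148 and 0.0193). For C1qtnf7 the 0 in hippocampus replicate 1 allows up to 3 UMIs, which would lie above its cortical levels.

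Over all interneurons, Sst cells included, 80 of 13739 genes (0.582%) differed in the Grin1-null libraries, 33 higher (0.24%) and 47 lower (0.342%) in hippocampus, and DESeq2 counted 146. The count was 29 without cortex replicate 1, 0 by edgeR without cortex replicate 2, 40 without hippocampus replicate 1 and 0 without hippocampus replicate 2, 149 without WT cortex replicate 2 and 151 without WT hippocampus replicate 2. Genes of neurogliaform cells, slow-acting interneurons that are numerous in hippocampus, came forward. Of 9 such genes tested 5 were higher in hippocampus, with a list median of 1.95 beside 0.0020 over all genes. Lamp5, a lysosome-associated membrane protein gene (chromosome 2, 136052239 to 136069917), measured 19.5 and 40.3 CPM in cortex and 147 and 216 in hippocampus. Cacna2d1, a calcium channel subunit gene, measured 14.4 and 44.6 CPM against 111 and 214. All hippocampal values exceeded all cortical ones, with log2 differences of 2.55 (adjusted p 0.00214) and 2.43 (adjusted p 0.00158); Hapln1 and Id2 stood at 1.72 and 2.33. None of these 4 passed with a Grin1-null library left out, the adjusted p reaching 0.0981 and 0.0904 without cortex replicates 1 and 2 and 0.0916 and 0.0851 without hippocampus replicates 1 and 2. In WT 7 of the 9 passed, with a median of 1.89. All 8 oligodendrocyte genes were higher in hippocampus in these sums too, with a median of 1.26 and summed levels of 114 and 175 CPM in cortex and 463 and 380.03 in hippocampus without passing (Mag had the smallest adjusted p, 0.0406). The makeup of the interneurons, such as the lower Sst share in hippocampus, may move these values, and its part was not tested.

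Other genes of the whole population repeated the Sst cells only in part. The 6 widest rises were Tnfaip8l3, Qrfpr, Ctsc, Ntf3, Aga and Frem1, the last, a matrix protein gene, at 0 and 1.07 CPM in cortex and 6.32 and 20.1 in hippocampus (log2 difference 4.23, adjusted p 0.00255). The falls were led by genes that included Spp1, Slc5a7, Krt18, Nts and Crabp1, a retinoic acid binding protein gene, at 17.8 and 119 CPM in cortex and 0 and 3.67 in hippocampus (log2 difference -5.17, adjusted p 6.34e-05). Slc5a7 was highest in cortex replicate 1, at 62.9 CPM, against 20.8 in cortex replicate 2. In that library the 4 cholinergic genes summed to 109 CPM, with 16 UMIs of Chat and 28 of Slc18a3, whereas these 2 had 0 UMIs in the other 3 Grin1-null libraries; the part of cholinergic cells in the fall of Slc5a7 was not tested. Of the transcription factors, 26 were tested; Nfib, Nr2f1 and Id2 were higher and Etv1 lower in hippocampus, the last at 52.7 and 39.3 CPM in cortex against 4.86 and 10.1 (log2 difference -2.45, adjusted p 0.00214). Over all genes tested in these sums, 0.24% were higher and 0.342% lower in hippocampus. Of 48 guidance genes 4 were higher and 2 lower, among them Nrp1 at 2.98, the related receptor Nrp2 at 2.18 and the netrin receptor gene Unc5c at 1.58. Of these list genes Nrp1 fell short without cortex replicate 2 (adjusted p 0.0508) or hippocampus replicate 2 (0.0468), and Nfib, Nr2f1, Id2, Etv1, Nrp2 and Unc5c without any of the 4 Grin1-null libraries, reaching 0.158 and 0.260 without cortex replicates 1 and 2 and 0.151 and 0.255 without hippocampus replicates 1 and 2. None of the 11 widest differences named here passed without cortex replicate 2 (adjusted p 0.0148 to 0.901) or hippocampus replicate 2 (0.0101 to 0.903). Krt18 fell short also without cortex replicate 1 (0.0196) or hippocampus replicate 1 (0.0132), and without the 5% of cells richest in UMIs.

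Of the 300 genes (2.18%) that differed in all WT interneurons, 195 higher (1.42%) and 105 lower (0.764%) in hippocampus, 298 had the same sign in Grin1-null interneurons, as did 8232 of all 13739 genes tested (59.9%); Ptgs1 and Egfr had the opposite one. The Grin1-null and WT lists had 62 genes in common, 20.7% of the WT list and 77.5% of the Grin1-null list. By edgeR 0 of 13739 genes departed between genotypes (smallest adjusted p 0.338, 545 at an unadjusted p under 0.05), and DESeq2 gave 1, Egfr, the epidermal growth factor receptor gene, named here after its values were seen. Egfr measured 15.3 and 20.9 CPM in Grin1-null cortex and 8.75 and 23.2 in hippocampus, against 2.57, 6.33 and 4.25 in WT cortex and 18.1, 23.7 and 26.7 in WT hippocampus. In WT the hippocampal libraries were all higher, whereas in Grin1-null libraries the regions overlapped (log2 differences 2.39 and -0.17; difference -2.56, adjusted p 0.338 by edgeR and 0.00493 by DESeq2). The WT count of 300 fell to 129 without WT cortex replicate 1, 157 without WT cortex replicate 3, 124 without WT hippocampus replicate 1 and 160 without WT hippocampus replicate 3.

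In the other interneurons 39 of 12057 genes (0.323%) differed between regions without Grin1, 20 higher (0.166%) and 19 lower (0.158%) in hippocampus, beside 408 (3.38%) in WT, 246 higher (2.04%) and 162 lower (1.34%). The Grin1-null count was 2 and 0 by edgeR without cortex replicates 1 and 2, 3 and 0 without hippocampus replicates 1 and 2, 82, 118 and 101 without WT cortex replicates 1 to 3, and 76, 178 and 98 without WT hippocampus replicates 1 to 3. The WT count was 221 and 235 without Grin1-null cortex replicates 1 and 2, 227 and 225 without the hippocampal ones, 222 without WT cortex replicate 3 and 221 without WT hippocampus replicate 3. By edgeR 0 genes departed between genotypes (636 at an unadjusted p under 0.05), and DESeq2 gave 6. The edgeR count was 1 without WT cortex replicate 1, 6 without WT cortex replicate 2, 1 without WT hippocampus replicate 1 and 7 without WT hippocampus replicate 2.

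There were 2 Grin1-null libraries per region, of which replicate 1 was small, of older chemistry and unequal in sex between regions. The p-values measure the spread of the regional difference over the pairs of pooled libraries of both genotypes. That spread had 3 residual degrees of freedom, against 1 from the Grin1-null libraries alone, so the WT pairs supplied part of it. On simulated data the test of the Grin1-null difference made more false calls than an adjusted p under 0.01 allows, so the counts are not held at that rate. Regional differences in the makeup of the Sst cells and in expression within a cell type cannot be told apart in summed counts.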

How the data were processed

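The counts were deposited by the authors as filtered UMI matrices, 1 per genotype and region, made with Cell Ranger (2.1.1 in the sources used here, 3.0.2 in the matrix headers) on GRCm38. Barcode suffixes told libraries apart. UMIs were summed per library over all members, Sst cells and other interneurons, and tested with edgeR 4.0.16 in R 4.3.3 (filterByExpr, then TMM; quasi-likelihood test; p adjusted by Benjamini-Hochberg over every gene tested) on all 10 libraries, with the pair as a block and the regional difference fitted within each genotype. Same-numbered libraries share a chemistry, and their deviations from the group means correlated at 0.29 in Grin1-null and 0.63, 0.57 and 0.36 in WT Sst cells. SE is that of the fitted log2 difference. Coordinates are from GENCODE for GRCm38. No doublet caller was run. Named genes are the widest 12 each way in Grin1-null Sst cells, 6 each way over all interneurons and in WT, members of the gene lists that passed, and fixed identity genes; a few of these are not reported here. Members and lists were chosen with earlier results of these data known. Alternatives were DESeq2 1.42.0, other scaling, filters, thresholds and gates, no block, and leaving out each library. On simulated data the Grin1-null test made more false calls than its threshold allows. Counting intervals cover counting error only.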

Additional observations from a re-analysis of the deposited data

How the results depend on the processing

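In Grin1-null Sst cells the count of 119 regional genes was 200 at an adjusted p under 0.05, 295 with no filter on low counts and, in an alternative chosen after seeing the data, 52 without cells holding a Chodl UMI. With no replicate block, so without the pairing, it was 5, and over leave-one-out fits it ran from 5 to 211. A library left out also removes its partner from the blocked regional difference, which then rests on the other pair. The count stayed within 1.5 times under the other alternatives.

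Over all Grin1-null interneurons the count of 80 was 200 at an adjusted p under 0.05, 0 by edgeR with no replicate block, 245 with the Grin1-null libraries alone, 146 by DESeq2, 376 with no filter and 0 to 151 with a library left out. In other interneurons the 39 became 129, 2 with no block, 419 with the Grin1-null libraries alone, 66 by DESeq2, 291 with no filter, 68 without the 5% of cells richest in UMIs and 0 to 178 with a library left out. The causes were not tested.

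Alternatives for WT counts were chosen after seeing the data. In WT Sst cells the 192 became 448 at an adjusted p under 0.05, 14 with no block, 505 with no filter and 56 to 258 with a library left out; in all WT interneurons the 300 became 676, 41, 853 and 124 to 313, and in other WT interneurons the 408 became 841, 58, 881 and 221 to 512.

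The count of 0 genes whose regional difference departed between genotypes became 7 with no filter in Sst cells and 0 to 1 with a library left out, over all interneurons 1 by DESeq2 and 34 with no filter, and in other interneurons 6 by DESeq2, 57 with no filter and 0 to 7 with a library left out. It could not be computed from the Grin1-null libraries alone. The share of WT regional genes with the same sign in Grin1-null Sst cells, 100%, was 94.1% with no filter and 94.8% to 100% with a library left out. The difference in Sst share, -16.5 percentage points, ran from -15.2 to -17.6 over the planned cell rules and, in alternatives chosen after seeing the data, was -10.8 without Chodl cells, where the regions overlapped, and -9.85 to -23.2 with a library left out.

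Of 51 genes picked by the naming rules that passed in Grin1-null Sst cells, 4 passed with no block, 36 of 50 by DESeq2 (not Rhox8, Gp5, Gna14, Neb, Sv2b, Pou3f2, Nts, Nfib, Chodl, Nrp1, Pcdh18, Hspa1a, Hspa1b and Mag), 48 under library-size scaling, 43 of 50 with the Grin1-null libraries alone (not Gna14, Neb, Nts, Nrp1, Sema3e, Hspa1b and Mag), 46 at Sst of at least 1000 CPM (not Neb, Sox6, Nfib, Bcl11a and Mag), 48 at Gad1 plus Gad2 of at least 6 UMIs (not Bcl11a, Hspa1b and Mag), 45 of 49 without the 5% of cells richest in UMIs (not Gna14, Neb, Sox6 and Calb2), 37 of 50 at Sst of at least 10000 CPM (not Gm11549, Gfra1, Gp5, Neb, Postn, Sox6, Nfib, Bcl11a, Calb2, Nrp1, Sema3e, Pcdh18 and Mag, with adjusted p up to 0.755), 19 of 44 without Chodl cells, 3 without cortex replicate 2 and 2 without hippocampus replicate 2. Signs changed for Hspa1a (-0.61 without cortex or hippocampus replicate 2, up to 3.52 without another library), Hspa1b (-5.53 and -5.45 from 1 UMI in cortex against 0 in hippocampus, which allow no fold, up to 2.92), Pvalb (-0.77 and -0.77, up to 1.98) and Reln (-0.89 and -0.89, up to 0.90; -0.23 without the richest cells, -0.024 at Sst of at least 1000 CPM, -0.31 without Chodl cells), and, without cortex or hippocampus replicate 1, for Gad1 (-0.051 and -0.051, otherwise up to 0.22) and Satb1 (0.14 and 0.14, otherwise down to -0.32; 0.014 under library-size scaling). Except for Hspa1a and Hspa1b none of these had passed.

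Depth limits the small replicate 1, where 1 UMI in Sst cells equals about 1.35 CPM in cortex and 1.22 CPM in hippocampus. Only 2 pairs carry the Grin1-null difference, and chemistry and animals cannot be told apart from the pair. In replicate 1 sex makeup differed within the pair and cannot be told apart from region.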

Other observations

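Among the 1618 Grin1-null interneurons with Sst below 3000 CPM, 39 of 12057 genes (0.323%) differed between regions, 20 higher and 19 lower in hippocampus, with DESeq2 counting 66. Pthlh, a parathyroid hormone-like peptide gene of fast-spiking cells, measured 139 and 319 CPM in cortex and 44.3 and 60.9 in hippocampus. Crabp1, a retinoic acid binding protein gene, measured 47.9 and 239 CPM in cortex and 0 and 4.68 in hippocampus. Both were cortical without overlap, with log2 differences of -2.07 (adjusted p 0.00596) and -5.75 (adjusted p 6.71e-06). The potassium channel genes Kcnq3 and Kcnip4 were lower in hippocampus, Kcnq3 at 148 and 151 CPM in cortex against 33.0 and 59.7, and Kcnip4 at 121 and 200.03 against 53.2 and 46.9 (log2 differences -1.61 and -1.70, adjusted p 0.00656 and 0.0056). They were the 2 of 31 potassium and HCN channel genes tested that passed. Lamp5, Cacna2d1 and Id2 were the 3 of 9 neurogliaform genes that passed, all higher in hippocampus; Lamp5 measured 50.2 and 84.9 CPM in cortex and 243 and 350.0 in hippocampus. Of the 408 genes that differed in WT cells of this kind, 386 had the same sign here, as did 7369 of all 12057 genes tested (61.1%). The 2 lists had 28 genes in common, 6.86% of the WT list and 71.8% of the Grin1-null list. The 246 WT rises had a median log2 difference of 1.79 in WT and 1.25 in Grin1-null cells, and the 162 WT falls had -1.45 and -0.71. The count of 39 was 2 without cortex replicate 1, 3 without hippocampus replicate 1, 0 by edgeR without either replicate 2 library, and 82, 118 and 101 without WT cortex replicates 1, 2 and 3 and 76, 178 and 98 without WT hippocampus replicates 1, 2 and 3. Of the genes named here only Crabp1 passed without cortex replicate 1 or hippocampus replicate 1 (adjusted p 0.000556 and 0.000488), and none passed without cortex replicate 2 (up to 0.672) or hippocampus replicate 2 (up to 0.682), all with the same sign.

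Of 18 activity-regulated genes tested in these cells, 2 were higher and 1 lower in hippocampus, beside 0.166% and 0.158% of all genes tested. Npas4, a transcription factor gene induced by depolarisation, measured 0 and 2.57 CPM in cortex and 1.61 and 40.3 in hippocampus, and Fosb 0 and 1.92 against 0 and 29.9. The heat shock gene Hspa1a measured 2.28 and 11.7 CPM in cortex and 14.5 and 108 in hippocampus. Hippocampus replicate 2 was the highest Grin1-null library for all 3, with log2 differences of 3.98, 3.95 and 3.19 (adjusted p 0.00134, 0.00444 and 0.000352). In WT the replicate 2 libraries were high in both regions, at 26.6 CPM in cortex and 39.2 in hippocampus for Npas4, 51.9 and 75.1 for Fosb and 59.4 and 80.9 for Hspa1a. Nr4a2, a nuclear receptor gene, went the other way, at 68.5 and 66.2 CPM in cortex and 24.2 and 14.8 in hippocampus (log2 difference -1.90, adjusted p 0.00669). None of the 4 passed without cortex replicate 1 (0.0107 to 0.0754), cortex replicate 2 (0.559 to 1.0) or hippocampus replicate 2 (0.559 to 1.0), and Hspa1a alone passed without hippocampus replicate 1 (0.0098). Without either replicate 2 library Fosb rested on 0 UMIs in both regions, so no difference of it remained. The part of handling of single libraries in these values was not tested.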
